A study of Mus musculus with 15 samples.

Results

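Transcription factors at the end of the ERK pathway were followed in hearts of mice with an Lmna H222P allele. They are the ternary complex factors Elk1, Elk3 and Elk4, their partner Srf, the PEA3 group factors Etv1, Etv4 and Etv5, and Myc. These 8 genes were taken from a fixed list, with every probe set of the array that the platform annotation gives to exactly 1 gene symbol. The list was made with earlier results of these data known. By that rule 7 of the 8 genes had 19 of the 45101 probe sets on the array. All 3 probe sets of Etv1 are annotated to a further symbol, so no value of Etv1 is given. Of the 19 probe sets, 17 passed a filter on weak signals (log2 signal above 4 on at least 7 arrays), as did 38870 probe sets in all.

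RNA of whole hearts from 15 male mice was measured on Affymetrix expression arrays, 1 array for each mouse, at 10 weeks of age for every sample. The control group had 8 arrays and the group heterozygous for Lmna H222P had 7. Lmna encodes lamins A and C of the nuclear lamina, and H222P is a missense substitution known from Emery-Dreifuss muscular dystrophy, a muscle disease that involves the heart. The labels give no strain, no litter and no genotype of the controls beyond the word control, so p-values reflect only how much these samples vary.

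ERK is the last kinase of a growth signalling cascade and phosphorylates ELK proteins, which sit with a dimer of SRF on serum response elements of immediate early genes. SRF also drives actin and muscle genes through CArG boxes, with myocardin-family cofactors that compete with ELK proteins for the same surface. PEA3 factors and MYC are induced or stabilised by ERK signalling, and overactive ERK signalling has been described in hearts of Lmna H222P mice.

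None of the 17 tested probe sets of these factors passed the threshold between heterozygous and control hearts. Limma's adjusted p, over all tested probe sets and with a threshold of 0.05, was at least 0.395 for every one of them. The same fit called 0.252% of all tested probe sets. At an unadjusted p under 0.05 there were 0 of the 17, against 14.6% of all tested probe sets, and the smallest p was 0.0741. The groups overlapped in all 17, while they did not overlap in 0.468% of all tested probe sets. By sign, 10 of the 17 differences lay above 0 and 7 below, with a median of 0.11 (log2, heterozygous minus control) beside -0.11 over all tested probe sets. The latter depends on signal strength and scaling. It was -0.055 with the filter at a log2 of 6 and 0.10 with array medians set equal. Only 4 of the 17, in Elk3, Elk4 (2 probe sets) and Etv4, kept their sign under every alternative that could be fitted to them. The alternatives included each array left out in turn and a covariate of atrial markers that itself differed strongly between the groups. In RNA of whole hearts, fewer cells of a type and less RNA per cell cannot be told apart.

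**Figure D1:**
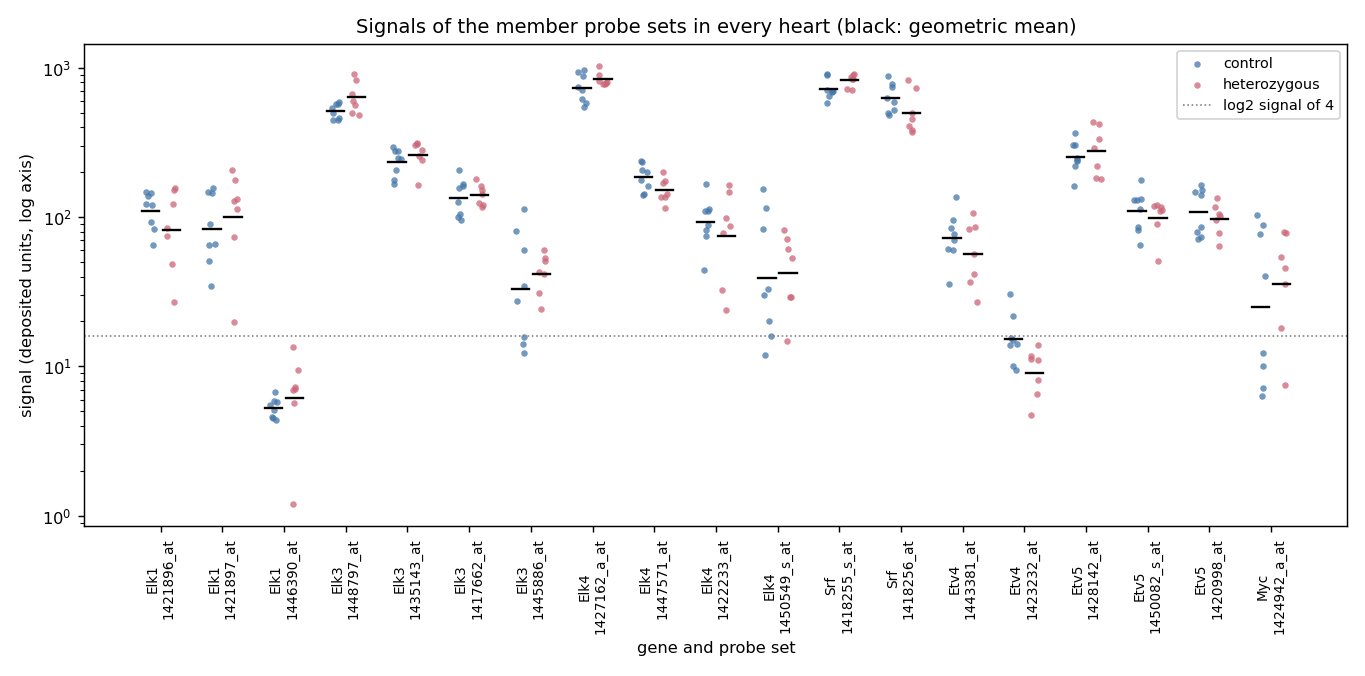
Deposited signal (log axis) of the 19 probe sets in each heart, control and heterozygous side by side, with a black bar at the geometric mean and a dotted line at a log2 signal of 4. The groups overlap in every tested probe set, and the Myc probe set spreads from 6.3 to 104 units among controls.

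Srf, the DNA-binding partner of the ELK factors and of myocardin, was measured by a pair of probe sets that the platform annotation ties to the same source sequence. They gave opposite signs. The probe set 1418255_s_at had signals from 580.3 to 908.7 units in control hearts (median 699.8) and from 713.6 to 907.4 in heterozygous hearts (median 839.6). All 7 heterozygous hearts lay above the control median, but none exceeded the highest control. Its log2 means were 9.49 ± 0.22 (SD, n = 8) and 9.68 ± 0.14 (SD, n = 7), a ratio of 1.14 with a 95% interval from 0.940 to 1.39 (limma, adjusted p = 0.525).

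The other Srf probe set, 1418256_at, ranged from 486.5 to 886.8 units in control hearts (median 607.4) and from 370.1 to 824.2 in heterozygous hearts (median 454.6). Here 4 heterozygous hearts lay below the lowest control, and arrays 6 and 7 stood at 824.2 and 735.6. The log2 means were 9.29 ± 0.32 (SD, n = 8) and 8.97 ± 0.46 (SD, n = 7), a ratio of 0.80 with an interval from 0.586 to 1.09 (limma, adjusted p = 0.50). Averaged over its pair of probe sets, Srf differed by -0.07 (log2), with an interval from -0.32 to 0.19 (limma over 16627 genes, adjusted p = 0.822).

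Because the signs differed, the ratio of 2 probe sets of a gene on the same array was compared between groups for all 24861 such pairs on the array, a choice made after the Srf values were seen. The log2 ratio of the 2 Srf probe sets was 0.20 ± 0.47 (SD, n = 8) in control hearts, from -0.33 to 0.85. In heterozygous hearts it was 0.72 ± 0.54 (SD, n = 7), from -0.04 to 1.29. The difference of 0.51 had a 95% interval from -0.07 to 1.1 and did not pass (limma, adjusted p = 0.488). It stood between 0.42 and 0.64 with each array left out in turn. With the mean of Sln, Myl7 and Myl4 of each array as a covariate it was -0.34, but that covariate itself differed strongly between the groups. Of the 17 pairs within member genes 0 passed, and 0.0442% of all pairs did. At an unadjusted p under 0.05 there was 1 of the 17, in Elk4, beside 2922 of all 24861 pairs.

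**Figure D2:**
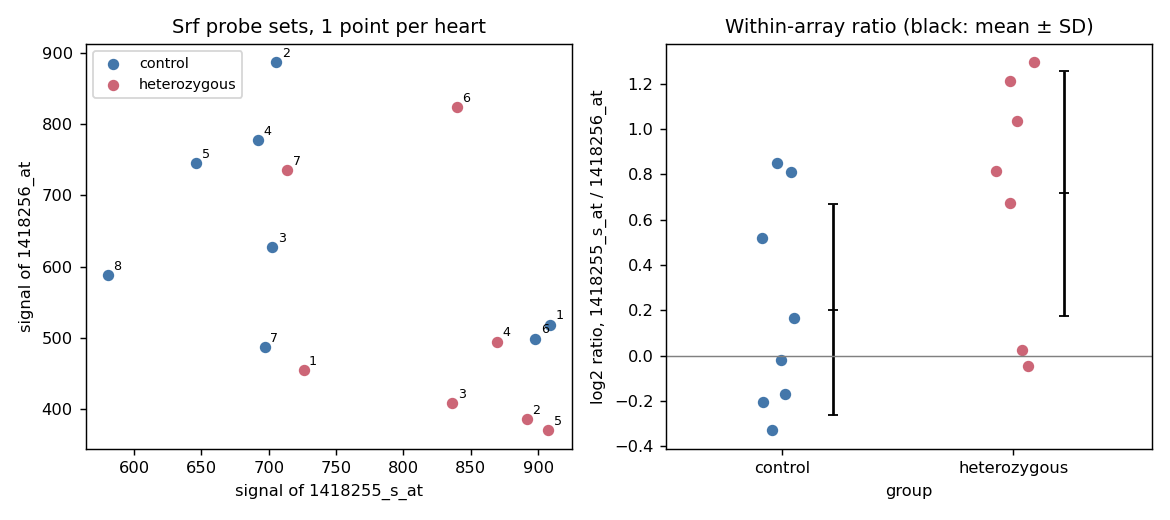
Left, signals of the 2 Srf probe sets, 1 numbered point per heart. Right, the log2 ratio of the 2 on each array by group, with mean and SD in black: 5 heterozygous hearts lie between 0.67 and 1.29, and the groups overlap.

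The start of Srf is shown because it carries sites for both partners of the ternary complex. In the RefSeq promoter table of build GRCm38.p6, the 250 bases before the annotated start lie at chr17:46556163-46556412 on the minus strand. Capitals mark 2 CArG boxes, 82 and 62 bases before the start, and the ETS motif CCGGAA 122 bases before it, searched on both strands. Beside it is 1 of the 3 starts of Elk4, chr1:132007370-132007619 on the plus strand, with the ETS motif in capitals 68 bases before that start.
Srf: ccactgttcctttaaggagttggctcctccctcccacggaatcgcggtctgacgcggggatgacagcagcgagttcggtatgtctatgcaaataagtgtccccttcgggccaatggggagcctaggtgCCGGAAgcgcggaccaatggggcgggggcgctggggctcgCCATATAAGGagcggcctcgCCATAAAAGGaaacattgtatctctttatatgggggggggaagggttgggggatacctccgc
Elk4: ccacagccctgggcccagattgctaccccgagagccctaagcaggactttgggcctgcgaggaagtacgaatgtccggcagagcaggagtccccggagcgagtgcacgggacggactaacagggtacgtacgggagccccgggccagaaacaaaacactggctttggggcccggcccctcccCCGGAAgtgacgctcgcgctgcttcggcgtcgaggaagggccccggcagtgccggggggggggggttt
A CArG box was found in 1.47% of 32851 windows of this length in the table, CCGGAA in 12.0% and the E-box CACGTG, the MYC site, in 6.02%. The table matched 6 of the 8 genes with 10 starts. The CArG box was found only at the start of Srf among these 10, and the E-box at none. CCGGAA was found at the start of Srf and at 1 of the 3 starts of Elk4. Matching letters are a description of these windows and say nothing of binding.

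Elk3, also called Net, represses serum response elements until ERK phosphorylates it, and is known from blood vessels. Its 4 probe sets were all above 0 in log2 difference. The probe set 1448797_at ranged from 444.1 to 588.2 units in control hearts (median 519.1) and from 481.7 to 906.4 in heterozygous hearts (median 597.6). Heterozygous arrays 6, 4 and 7 were the highest, at 906.4, 834.7 and 669.0 units, and 4 of the 7 heterozygous hearts exceeded the highest control. The log2 means were 9.0 ± 0.17 (SD, n = 8) and 9.31 ± 0.35 (SD, n = 7). The ratio was 1.24, with an interval from 0.977 to 1.57 (limma, unadjusted p = 0.0741, adjusted p = 0.395), the smallest p of the 17.

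The summed signal of 7 endothelial markers ran from 4483.9 to 5560.7 units in control hearts and from 4619.4 to 8065.5 in heterozygous hearts. It too was highest on heterozygous arrays 4, 7 and 6, at 8065.5, 6835.7 and 6834.3 units. In Elk3 1435143_at, by contrast, arrays 7 and 4 were the lowest heterozygous hearts, at 164.7 and 240.5 units. Among controls, array 6 was lowest both in the sum and in Elk3 1448797_at. Control array 2 had the highest sum but only 446.5 units of that probe set. By log2 difference, 6 of the 7 markers lay above 0 and 1 below, from -0.24 (Tie1) to 0.55 (Kdr). None of the 7 markers was listed at 0 and 0 of the 7 passed, with 2 at an unadjusted p under 0.05 (14.6% of all tested probe sets). The part of endothelial cells in the Elk3 values was not tested.

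The other Elk3 probe sets had smaller or less certain differences. The probe set 1435143_at differed by 0.17, 1417662_at by 0.06 and the weak 1445886_at by 0.34 (log2), with adjusted p from 0.702 to 0.910. For 1417662_at, tied to the same source sequence as 1448797_at, all 7 heterozygous hearts lay within the control range of 96.4 to 207.8 units. The mean of the 4 probe sets differed by 0.22, with an interval from -0.10 to 0.53 (limma over genes, adjusted p = 0.496).

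Elk4, also called SAP-1, is a ternary complex factor close to Elk1. Its probe set 1427162_a_at ranged from 546.0 to 964.3 units in control hearts (median 728.2) and from 775.5 to 1030.4 in heterozygous hearts (median 807.4). The heterozygous hearts were all above the control median and lay close together. The log2 means were 9.52 ± 0.32 (SD, n = 8) and 9.71 ± 0.15 (SD, n = 7), a ratio of 1.14 with an interval from 0.912 to 1.44 (limma, adjusted p = 0.586).

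A further Elk4 probe set had the other sign. The probe set 1447571_at ranged from 140.5 to 239.0 units in control hearts (median 188.0) and from 115.0 to 201.7 in heterozygous hearts (median 142.8). Here 6 of the 7 heterozygous hearts lay below the control median and 3 below the lowest control. The ratio was 0.821, with an interval from 0.641 to 1.05 (limma, adjusted p = 0.454). The log2 ratio of these 2 Elk4 probe sets on the same array differed by 0.48, with an interval from 0.0016 to 0.96 (limma, unadjusted p = 0.0493, adjusted p = 0.424 over all pairs).

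The remaining Elk4 probe sets, 1422233_at and 1450549_s_at, share their source sequence and spread widely. The first had 44.1 to 167.2 units in control and 23.8 to 164.1 in heterozygous hearts, and the other 12.0 to 154.8 and 14.9 to 81.6. Their log2 differences were -0.32 and 0.11, with adjusted p of 0.757 and 0.951. Averaged over its 4 probe sets, Elk4 differed by -0.08, with an interval from -0.53 to 0.38.

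Elk1, the ternary complex factor first tied to ERK, gave weaker signals. The probe set 1421896_at ranged from 65.3 to 146.9 units in control hearts (median 121.0) and from 27.0 to 156.8 in heterozygous hearts (median 84.8). The heterozygous hearts spread past the controls on both sides, with 2 above the highest and 2 below the lowest control. The ratio was 0.743, with an interval from 0.443 to 1.25 (limma, adjusted p = 0.601).

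The probe set 1421897_at of Elk1 ranged from 34.6 to 156.6 and from 19.9 to 208.4 units, with a ratio of 1.21 and an interval from 0.600 to 2.44 (limma, adjusted p = 0.826). Heterozygous array 7 was lowest there, at 19.9 units. The third, 1446390_at, stayed at or under 13.5 units on every array and was not tested.

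Among the PEA3 factors, which share an ETS domain and an acidic activation domain, Etv5 (ERM) had 3 tested probe sets. The probe set 1428142_at ranged from 161.0 to 364.4 units in control hearts (median 244.7) and from 180.2 to 432.1 in heterozygous hearts (median 291.4). Heterozygous arrays 2 and 5 were the highest, at 432.1 and 422.1 units, and arrays 6 and 7 were among the lowest, at 182.5 and 180.2. The ratio was 1.1, with an interval from 0.776 to 1.56 (limma, adjusted p = 0.826).

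The other pair of Etv5 probe sets, 1450082_s_at and 1420998_at, share a source sequence and both differed by -0.15 (log2), with adjusted p of 0.812 and 0.802. For 1450082_s_at, 0 of the 7 heterozygous hearts exceeded the control median. Its signals ran from 65.4 to 178.1 units in control and from 50.5 to 121.1 in heterozygous hearts. Both differences became 0.05 with array medians set equal. Averaged over its 3 probe sets, Etv5 differed by -0.06, with an interval from -0.39 to 0.28.

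Etv4, known as PEA3 itself, had 1 tested probe set, 1443381_at. It ranged from 35.7 to 135.6 units in control hearts (median 73.4) and from 27.0 to 106.2 in heterozygous hearts (median 56.3), a ratio of 0.774 with an interval from 0.479 to 1.25 (limma, adjusted p = 0.626). The groups overlapped over most of their range. The untested probe set, 1423232_at, exceeded a log2 signal of 4 on 2 of 15 arrays, both of them controls. It had 9.4 to 30.6 units in control and 4.7 to 14 in heterozygous hearts, values too weak to order.

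Myc, a helix-loop-helix factor of cell growth whose protein ERK stabilises, had a single probe set, 1424942_a_at. Its signals ran from 6.3 to 104.0 units in control hearts (median 26.4) and from 7.5 to 79.3 in heterozygous hearts (median 45.3). Control hearts fell into 4 arrays at or under 12.3 units and 4 between 40.4 and 104.0, and all heterozygous hearts lay within the control range. The log2 means were 4.65 ± 1.71 (SD, n = 8) and 5.16 ± 1.23 (SD, n = 7), a ratio of 1.42. The interval, from 0.482 to 4.17, was the widest of the 17 (limma, adjusted p = 0.789), so these arrays leave Myc all but unmeasured.

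**Figure D3:**
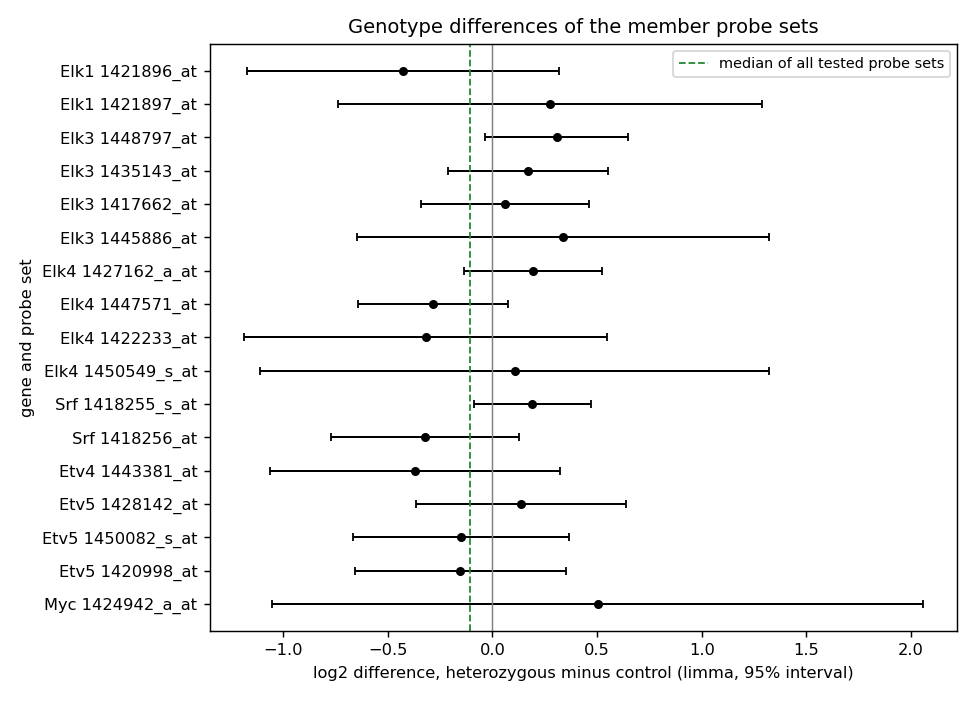
Log2 difference, heterozygous minus control, of the 17 tested probe sets with limma's 95% interval, grouped by gene. Every interval includes 0, and the dashed line marks the median of all tested probe sets at -0.11.

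The probe sets differed in what they could show. The narrowest interval was that of Srf 1418255_s_at, from -0.09 to 0.47 (log2), and that of Elk4 1427162_a_at ran from -0.13 to 0.52. For these 2, a rise above 1.39-fold and 1.44-fold lay outside the interval with the deposited scaling. With array medians set equal, their differences were 0.396 and 0.400 (log2), in place of 0.191 and 0.195, so these limits depend on the scaling. The median interval width was 1.01 over the 17 and 1.39 over all tested probe sets.

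For the 4 factors whose brightest probe set averaged at least 100 units, the genes with the most similar order of the 15 arrays were listed. The measure was the mean difference in rank, for which unrelated orders give 4.98. For Srf 1418255_s_at these were Lpp, a LIM protein of focal adhesions, at 1.07, and Hamp, the iron hormone hepcidin, and Raph1, an actin regulator, both at 1.6. For Elk3 1448797_at they were Dcaf12 at 1.07, Nol11 at 1.33 and Kdelr2 at 1.47. For Elk4 1427162_a_at they were Mtmr6 at 1.47 and Stard3 and Zmynd11 at 1.6. For Etv5 1428142_at they were Tmem164 at 1.73 and Zfp37 and Dlgap1 at 1.87. The 12 were picked as the closest of all tested probe sets, and none of the 12 passed between groups. The 2 Srf probe sets differed from each other by a mean of 6.80 ranks, and the median over all same-gene pairs was 4.67.

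Genes around the factors were counted in 9 lists, each gene by its brightest tested probe set. Of 127 genes so tested, 0 passed limma's adjusted threshold, beside the 0.252% of all tested probe sets. At an unadjusted p under 0.05 there were 26, or 20.5%, beside 14.6% of all tested probe sets. The lists were chosen with earlier results of these data known, so no conclusion is drawn from that comparison. That 14.6% (1726 probe sets higher and 3937 lower) is the background for every list and marker count at an unadjusted p.

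Of 12 cofactors and competitors of SRF, 0 passed and 3 were higher at an unadjusted p under 0.05, with a list median of 0.14 (log2). Csrp2, a LIM protein that bridges SRF and GATA factors, had 258.8 to 513.1 units in control hearts (median 374.2) and 430.4 to 798.9 in heterozygous hearts (median 701.5). The ratio was 1.80 (limma, adjusted p = 0.0699). It passed with array medians set equal (limma, adjusted p = 0.0443), but no list gene passed after quantile normalization or without a filter. Csrp2 has 1 tested probe set, so taking each gene as the mean of its probe sets left its difference at 0.85 (log2). It passed there (limma, adjusted p = 0.0483) with the adjustment over 16627 genes rather than 38870 probe sets. Csrp1, its relative, was 1.36 times control (adjusted p = 0.271), and its other probe set at -0.17 (log2).

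Of 25 muscle and actin genes with CArG boxes, 0 passed, 8 were higher and 2 lower at an unadjusted p under 0.05 (14.6% of all tested probe sets, both directions), and the median was 0.07. Acta2, smooth muscle actin, and the LIM protein gene Fhl1 had the smallest p, at 1.70-fold and 1.67-fold with adjusted p of 0.0755 and 0.0780. Fhl1 had 2202.6 to 4321.8 units in control and 4487.7 to 6478.6 in heterozygous hearts, with no overlap in this probe set, while its other lay at -0.55 (log2). Further Acta2 probe sets lay at -1.55 and 0.95. A dimmer probe set of Cfl2, the muscle form of the actin-severing protein cofilin, did pass: 1431432_at differed by -0.92 (log2, limma adjusted p = 0.0387), while its other probe sets lay at -0.10 and 0.35 and did not pass. The summed signal of 7 fibroblast markers did not overlap either, at 12941.1 to 17415.4 units in control and 18394.2 to 29994.4 in heterozygous hearts. Its brightest marker, Dcn, had geometric means of 6487 and 11941 units. By brightest probe set all 7 lay above 0, from 0.08 (log2) in Col3a1 to 0.88 in Dcn. Other probe sets of Dcn, Pdgfra, Col1a1 and Tcf21 went down to -0.47, -0.38, -0.52 and -0.49, while those of Col1a2 and Col3a1 stayed above 0. None of the 7 was listed at 0 and 0 of the 7 passed, with 4 higher at an unadjusted p under 0.05. The summed signal of 6 smooth muscle and pericyte markers was 10670.1 to 13004.1 and 8008.0 to 12192.1 units. Of these markers, Tagln, Cnn1, Myh11 and Lmod1 are also in the list of muscle and actin genes. None of the 6 passed, 3 were higher and 1 lower at an unadjusted p under 0.05, and their median was 0.72 (log2). The sum is mostly Rgs5, a pericyte gene, at geometric means of 10103 and 7505 units (-0.43), while Tagln, Cnn1, Myh11 and Lmod1 lay between 0.60 and 1.41. Their part in the list was not tested.

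Of 10 immediate early genes with serum response elements, 0 passed, 1 was higher and 1 lower at an unadjusted p under 0.05, and the median was -0.02. The zinc finger gene Egr1 stood at 1.80-fold (adjusted p = 0.126) and the orphan receptor gene Nr4a1 at 0.599 of control (adjusted p = 0.245). Nr4a1 had 652.9 to 1257.8 units in control hearts and 216.1 to 919.0 in heterozygous hearts. Egr1 had 240.8 to 410.3 units in control and 428.0 to 1129.6 in heterozygous hearts, with no overlap.

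Of 13 ERK output genes 0 passed, 1 was higher at an unadjusted p under 0.05, the phosphatase gene Dusp4, and the median was -0.10. Dusp4 had 4.3 to 40.9 units in control and 16.2 to 132.6 in heterozygous hearts (limma, adjusted p = 0.163). Spry2, a feedback inhibitor of the receptors upstream, stood at 1.23-fold (adjusted p = 0.369). Of 19 ERK cascade genes 12 were tested and 7 were not analysed here. None of the 12 passed and 1 was higher at an unadjusted p under 0.05, with a median of -0.02. That 1 was the phosphatase gene Ptpn11 at 1.39-fold (adjusted p = 0.265), whose other probe sets lay at -0.38 and -0.28 (log2), and Map2k1, which encodes MEK1, stood at 1.11-fold (adjusted p = 0.610).

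Of 7 regulators of PEA3 factors, 0 passed and 0 had an unadjusted p under 0.05, with a median of -0.17. Cic, the repressor that ERK lifts from PEA3 genes, stood at 1.20-fold (adjusted p = 0.486), and Cop1, a ubiquitin ligase for these proteins, at 1.13-fold (adjusted p = 0.543). Of 18 other ETS factors tested, 0 passed, 2 were higher and 1 lower at an unadjusted p under 0.05, and the median was -0.01. Etv3, a repressor, stood at 1.37-fold (limma, adjusted p = 0.203), and the lowest of its other probe sets lay at -0.35 (log2). The weak Etv2, a factor of early vessels, stood at 2.33-fold (limma, adjusted p = 0.214).

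Of 12 MYC partners, antagonists and degradation factors 0 passed, 1 was higher and 2 lower at an unadjusted p under 0.05, with a median of -0.10. Mga and Mxd3, repressors that pair with MAX, stood at 0.557 and 0.565 of control (adjusted p = 0.301 and 0.308), and other probe sets of Mga reached 0.44 (log2). Of 18 MYC targets 0 passed, 2 were higher and 1 lower at an unadjusted p under 0.05, and the median was 0.08. The ribosome assembly genes Rrs1 and Npm1 stood at 1.5-fold and 1.3-fold (adjusted p = 0.144 and 0.270).

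**Figure D4:**
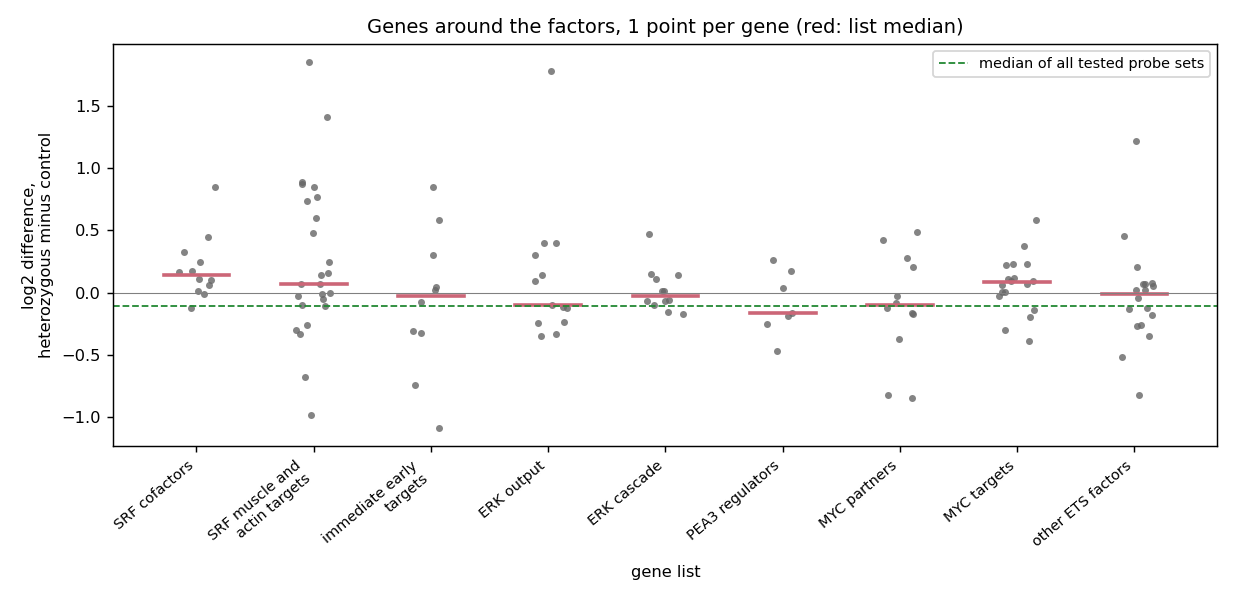
Log2 difference, heterozygous minus control, of the 127 tested genes in the 9 lists, 1 point per gene by its brightest tested probe set, with the list median in red. The medians lie between -0.17 (PEA3 regulators) and 0.14, and the green line marks the median of all tested probe sets at -0.11. That line includes weak probe sets and stood at -0.055 with the filter at a log2 of 6, so it is not matched to the brightest probe sets.

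The arrays bore the markers of heart muscle, with Myh6 at geometric means of 29291 and 30672 units, and 0 of 7 ventricular markers passed. Of 7 atrial markers 3 passed, Sln, Myl7 and Myl4, all higher in heterozygous hearts. At an unadjusted p under 0.05 (limma), 4 were higher and 1 lower. Kcna5 lay at -0.62, Bmp10 at -0.81 and Tbx5 at 0.18 (log2), and none of these passed. Other probe sets of Sln and Myl4 lay at -0.94 and -0.07 (log2) and did not pass either. In the passing probe sets of Sln, Myl7 and Myl4 the groups overlapped, with Sln at up to 406.7 units in control and from 241.0 in heterozygous hearts. The summed atrial signal was 6812.2 to 11572.2 units in control and 7182.1 to 40744.2 in heterozygous hearts. In control hearts the sum is mostly Nppa, at geometric means of 6947 units in control and 12713 in heterozygous hearts. Of 5 tested blood markers 2 passed, Alas2 and Ppbp, both lower, with sums of 3429.4 to 4243.3 and 1697.7 to 3365.7 units. A dimmer probe set of Slc4a1 passed too, at -1.80 (log2). Pf4, a bright part of the sum at geometric means of 1384 and 1226 units, lay at -0.18 and did not pass. Of 6 macrophage markers 0 passed, with sums of 4971.2 to 7427.0 and 4354.7 to 10490.3 units. No marker was listed at 0. With the mean of Sln, Myl7 and Myl4 of each array as a covariate, 9 of the 17 member differences changed sign and 0 passed. These 3 markers stood at 82.9, 25.8 and 7.10 times control, so the covariate largely follows genotype. The fit can hardly separate the 2, and no conclusion is drawn from those changes of sign.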

How the data were processed

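Total RNA of whole hearts was hybridised to 1-colour Affymetrix arrays, per the labels' protocols. The deposited intensity values are linear probe set signals. The submitters' processing notes name GCRMA, without a version. The values do not look like GCRMA output, since the mean after trimming 2% at each end was 250.0 units on every array, so how probes were summarised is not known. Array medians ran from 56.7 to 94.2 units, and 2 arrays had at most 0.290% of values in common. The number of arrays limits the precision.

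Signals were log2-transformed without a pseudocount. Array control probe sets were left out, and testing required a log2 signal above 4 on 7 or more arrays. The heterozygous and control groups were contrasted by limma (version 3.58.1, R 4.3.3), using lmFit, eBayes and two-sided p-values that were adjusted by Benjamini and Hochberg's method across the 38870 probe sets. No covariate was used. Means and SDs are of log2 signals, and ratios are heterozygous over control geometric means. Genes took their symbols from the platform annotation. All 19 member probe sets matched RefSeq GRCm38.p6 by gene identifier under the same symbol. Motifs were searched with Python 3.11.15 and figures drawn with matplotlib 3.10.9. The fit was tested on simulated data.

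The members and lists were chosen with earlier results of these data known. The named genes were all members, the list members past the threshold and the 2 with the smallest p of each list, and the 3 genes closest in array order to each bright member. Cfl2, the 2-probe-set ratios and the marker genes named singly were added after values were seen.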

Additional observations from a re-analysis of the deposited data

Results flagged for a closer look

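In 3 of 38 groups of a member probe set and genotype, the lowest array stood far from the others for the range of its group (Dixon's ratio of gap to range, taken on log2 signals), where chance gives about 1 in 20. Heterozygous array 7 was lowest in Elk3 1435143_at, at 164.7 units against 240.5 for the next (ratio 0.590), and in Etv5 1450082_s_at, at 50.5 against 89.8 (ratio 0.658). Without it these log2 differences were 0.28 and 0.01, in place of 0.17 and -0.15, and neither passed. Heterozygous array 4 was lowest in the untested Elk1 1446390_at, at 1.2 against 5.7 units (ratio 0.644).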

How the results depend on the processing

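No member probe set and no pair of member probe sets passed under any of the alternatives run. The smallest adjusted p of a member was 0.229. Of 150 member differences under the alternatives that kept all arrays, 16 changed sign. With log2 signals floored at 6, these were Elk3 1445886_at (-0.14), Elk4 1450549_s_at (-0.24) and Myc (-0.092). After centring on the median they were Etv5 1420998_at (0.052) and Etv5 1450082_s_at (0.055), the latter also after quantile normalization (0.019), and with array weights Elk3 1417662_at (-0.0068). With the atrial covariate they were Elk1 1421896_at (0.10), Elk1 1421897_at (-1.04), Elk3 1435143_at (-0.070), Elk4 1427162_a_at (-0.052), Srf 1418255_s_at (-0.21), Srf 1418256_at (0.13), Etv5 1420998_at (0.47), Etv5 1428142_at (-0.16) and Myc (-0.28). The Srf ratio, which is not among the 150, also changed sign with that covariate, to -0.34. With each array left out, Elk3 1417662_at ran from -0.0092 to 0.15, Elk4 1450549_s_at from -0.14 to 0.39 and Etv5 1450082_s_at from -0.26 to 0.012. The atrial covariate itself differed strongly between the groups, so its fit can hardly separate genotype from atrial signal. The cause was not tested.

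Over all probe sets, the 98 calls became 67 without a filter, 192 with the filter at a log2 of 6, 287 with the floor, 65 after centring (51 higher, 14 lower) or quantile normalization (37 higher, 28 lower), 312 with a trended robust prior and 2 with the atrial covariate. The median difference was 0.10 after centring. Omitting 1 array gave 17 to 150 calls, with 27, 32, 27, 24, 52, 55 and 17 for controls 1 to 7 and 40, 20, 54 and 150 for heterozygous hearts 1, 4, 6 and 7. List genes past the threshold became 1, Csrp2, after centring and also with the mean of probe sets. They stayed at 0 without a filter and after quantile normalization.

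With the replicate number as a block, 1 probe set and 0 of the members passed. The numbers pair no samples by the labels, same-numbered arrays correlated from -0.06 to 0.06 in their deviations, and 1 of 7 heterozygous arrays correlated best with its own number.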
